A study of Tachycineta bicolor with 30 samples.

Results

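The cholinergic genes described here are the enzymes, the transporter and the receptors through which brain tissue makes, takes up, breaks down and senses acetylcholine. The set names 10 genes, and a transcript was taken for a gene when the protein title of its best database match was that gene's name. Where several transcripts carried one title, the one with the highest mean over all libraries was used. Of the 10 genes, 9 were found this way among 19478 transcripts: choline O-acetyltransferase (CHAT), high affinity choline transporter 1 (SLC5A7), acetylcholinesterase (ACHE), muscarinic acetylcholine receptor M3 (CHRM3), muscarinic acetylcholine receptor M4 (CHRM4), muscarinic acetylcholine receptor M5 (CHRM5), and the nicotinic neuronal acetylcholine receptor subunit alpha-4 (CHRNA4), neuronal acetylcholine receptor subunit alpha-7 (CHRNA7) and neuronal acetylcholine receptor subunit beta-2 (CHRNB2). The muscarinic acetylcholine receptor M2 matched no row and was not analysed here. All 9 genes passed the filter on low values.

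The libraries came from free-living adult female tree swallows (Tachycineta bicolor). The study kept 4 caught during territory establishment, when they fought over nest boxes and were not yet fertile, and 5 caught during incubation. Each female gave tissue of the ventromedial telencephalon (VmT), a piece of caudal telencephalon meant to hold nucleus taeniae, of the hypothalamus (HYPO, with the preoptic area) and of the hindbrain (HB), macrodissected, so that each library is a mix of cell types. In such bulk tissue fewer cells of a type and less RNA per cell cannot be told apart. The female of 1 VmT library of territory establishment is not settled by the labels, which carry the numbers of 2 females of that stage (1 of them removed by the study for low RNA integrity), and that sample is named the unresolved VmT library. The other libraries are each a region of 1 female. P-values between stages within a region rest on a spread between libraries that was pooled over all 6 groups, the other regions included. The main fit held no term for the female. Its p-values for comparisons of regions, or of stage differences between regions, therefore treat libraries of one female as independent. Those between stages within a region do so through the pooled spread.

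Acetylcholine is made from choline and acetyl-CoA by CHAT, loaded into vesicles by the vesicular transporter SLC18A3, released, and cleaved in the synaptic cleft by ACHE. The choline is then taken back into the terminal by SLC5A7. In the vertebrate brain the neurons that make it sit in the motor nuclei of the brainstem, in nuclei of the pons, in the basal forebrain and as interneurons in the striatum. Muscarinic receptors act through G proteins (M3 and M5 through Gq, M4 through Gi), and nicotinic receptors are cation channels of 5 subunits, most often alpha-4 with beta-2, or alpha-7 alone.

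Values are normalized counts: the reads of a transcript over a size factor of the library, with no correction for length, so levels are compared between libraries and not between genes. The recovered depth of a library was 6001315 to 13710385 reads (median 8308433). Differences were tested with limma on log2(normalized count + 1), with all 6 groups fitted together, and a gene is called at an adjusted p of at most 0.05 over 19473 transcripts. Hox and telencephalon markers separated the regions, while those of the hypothalamus and thalamus overlapped between the VmT and the HYPO. The summed level of 10 Hox genes was between 1350.2 and 2838 in the HB libraries and at most 15.5 elsewhere, and the summed telencephalon markers were 2716 to 5058 in the VmT against at most 1397 elsewhere. Hypothalamus markers summed to 681 to 2455 in the HYPO, to 122 to 907 in the VmT (the highest above 2 HYPO libraries) and to 67.7 to 159 in the HB. The sum of 13 thalamus, habenula and midbrain markers in the VmT was 570 to 1938 during territory establishment and 1677 to 2577 during incubation, against 1349 to 2478 in the HYPO. Summed muscle markers were 39.2 to 81.4 in the HB and at most 18.2 in the VmT and the HYPO.

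The genes that make and recycle acetylcholine were highest in the HB. CHAT had a median normalized count of 360.7 in the HB (324 to 627 over 9 libraries), 107 in the HYPO (23.3 to 185) and 92.6 in the VmT (47.9 to 247). No VmT or HYPO library reached the lowest HB library. The log2 fold change of CHAT was -2.01 between the VmT and the HB (SE 0.34, adjusted p = 2.04e-05) and -2.38 between the HYPO and the HB (SE 0.34, adjusted p = 9.76e-06). Between the VmT and the HYPO it was 0.37 (95% interval -0.32 to 1.06, adjusted p = 0.462).

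SLC5A7, which takes up the choline, followed the same order. Its normalized counts ran from 2526 to 3975 in the HB (median 2722), from 247 to 1641 in the HYPO (median 791) and from 460.0 to 1416 in the VmT (median 681). Again the HB stood above every library of the other regions. Log2 fold changes were -2.0 between the VmT and the HB (SE 0.29, adjusted p = 1.79e-06) and -2.13 between the HYPO and the HB (SE 0.29, adjusted p = 3.78e-06), and 0.14 between the VmT and the HYPO (95% interval -0.45 to 0.72). Over the 27 libraries the log2 values of CHAT and SLC5A7 had a Pearson r of 0.98, and their deviations from the group means one of 0.95.

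SLC18A3, which is not among the 10 genes, fills the vesicles with acetylcholine and moved with them. It had 737 to 1415 normalized counts in the HB, 47.9 to 442 in the HYPO and 190.1 to 423 in the VmT. Its log2 fold change was -1.86 between the VmT and the HB (adjusted p = 2.38e-05) and -2.31 between the HYPO and the HB (adjusted p = 5.75e-06). Among annotated transcripts with another title than CHAT and a mean of at least 50, SLC5A7 and SLC18A3 were the most like CHAT over the 27 libraries (r = 0.98 and 0.97), and the next was Hox-A2 (r = 0.81), a homeobox gene of the hindbrain. The libraries share their regions and females, so these values describe the pattern and carry no test. Of the transcripts with the title of CHAT, 2 others had means of 76.7 and 32.2, the second below the level set for naming and given because its values were seen. They gave -1.73 and -1.88 between the VmT and the HB and -2.46 and -2.68 between the HYPO and the HB, all called.

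**Figure D1:**
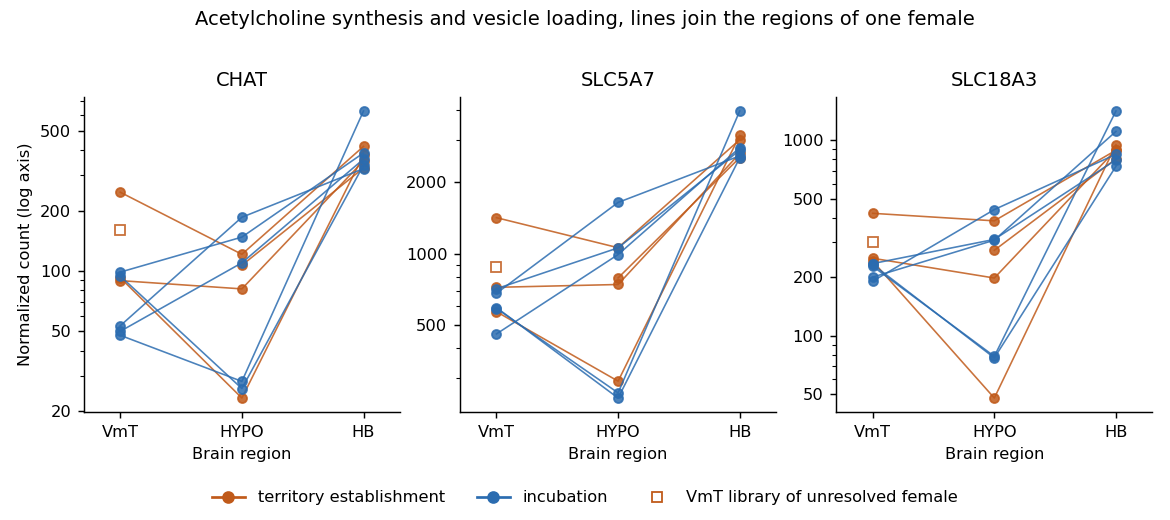
Normalized counts of CHAT, SLC5A7 and SLC18A3 (log axes) in each library of the 3 brain regions, coloured by stage, with lines joining the regions of one female and an open square for the unresolved VmT library. Every HB value lies above all VmT and HYPO values, and 3 HYPO libraries lie far below the other 6 in all 3 genes (CHAT 23.3, 26.0 and 28.2 against 81.5 or more).

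Within the HYPO the synthesis genes fell into high and low libraries that crossed the stages. CHAT was 81.5, 121, 107 and 23.3 normalized counts in the females 85674, 85689, 85691 and 85694 of territory establishment. During incubation it was 109.9, 148, 26.0, 28.2 and 185 in the females 85757, 85774, 85840, 85889 and 85899. The 3 low libraries were thus those of 85694, 85840 and 85889, of which 1 is from territory establishment and 2 are from incubation.

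The same 3 HYPO libraries were lowest in SLC5A7, with 291, 247 and 260.2 normalized counts against 742 or more in the others. They were also lowest in SLC18A3, with 47.9, 76.9 and 78.4 against 197 or more. LHX8, a factor of forebrain cholinergic neurons, ran the other way, with 68.6, 88.4 and 100.3 in these 3 and 5.19 to 61.7 in the other 6 HYPO libraries. LHX8 was 322 to 616 in the VmT and at most 4.34 in the HB. Of the 11 genes of this cholinergic and motor neuron list 7 were measured, and their summed level was 136 to 290.0 in the HYPO during territory establishment and 106 to 199.6 during incubation. The part of these markers in the CHAT levels was not tested. The sums of 10 Hox genes were 4.18 to 9.36 in the 3 and 1.01 to 15.5 in the 6. These sums are near 0, with some Hox genes at 0 in all HYPO libraries, and their part was not tested.

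In the VmT, CHAT was 89.6, 247, 159.9 (the unresolved library) and 92.6 during territory establishment, and 50.1, 98.7, 94.4, 47.9 and 53.4 during incubation. The stages overlapped, since 2 libraries of territory establishment lay below 2 of incubation. The log2 fold change was 1.03 (95% interval 0.05 to 2.01, unadjusted p = 0.0401), which did not pass over all transcripts (adjusted p = 0.288). For SLC5A7 it was 0.49 (95% interval -0.33 to 1.32), from 897 ± 368 normalized counts (SD, n = 4) against 607 ± 98.5 (SD, n = 5). For SLC18A3 it was 0.45 (adjusted p = 0.714), although its 4 values of territory establishment (241 to 423) all lay above the 5 of incubation (190.1 to 234).

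In the HB, CHAT averaged 369 ± 38.9 normalized counts (SD, n = 4) in females establishing territories and 407 ± 125 (SD, n = 5) in incubating ones, with a log2 fold change of -0.10 (95% interval -1.08 to 0.88). SLC5A7 gave -0.03 there and 0.02 in the HYPO, where CHAT gave -0.07. The 95% intervals over these regions reached from -1.08 to 0.91 for CHAT and from -0.85 to 0.84 for SLC5A7. The fit used 1 spread per gene for all groups, so the SE was the same in each region (0.48 for CHAT, 0.40 for SLC5A7). The libraries varied less in the HB than in the HYPO. The coefficient of variation was 24.1% against 62.3% for CHAT and 16.1% against 59.2% for SLC5A7. Stage differences inside those bounds were not excluded at this shared spread.

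ACHE, the enzyme that ends the signal, was the only one of the 9 genes called between stages, in the VmT, where 3.53% of all transcripts were called. In the VmT its normalized counts were 13.1, 17.6, 10.0 (the unresolved library) and 23.4 during territory establishment, which rest on 14, 19, 16 and 24 reads. During incubation they were 25.04, 25.9, 60.8, 268 and 176 in the females 85757, 85774, 85840, 85889 and 85899. All 5 values of incubation lay above the 4 of territory establishment, the lowest of incubation (25.04) lying just above the highest of territory establishment (23.4). The log2 fold change was -2.16 (SE 0.50, 95% interval -3.20 to -1.13, adjusted p = 0.0136), higher during incubation.

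In the HYPO the order of the stages was turned. ACHE was 197, 85.7, 199 and 180.0 normalized counts during territory establishment and 67.6, 56.6, 48.9, 52.2 and 81.4 during incubation. Here all 4 values of territory establishment lay above the 5 of incubation. The log2 fold change was 1.37 (SE 0.50, 95% interval 0.33 to 2.40, unadjusted p = 0.0115), which did not pass over all transcripts (adjusted p = 0.178). It did in a fit of the HYPO libraries alone (adjusted p = 0.0335), where 236 transcripts were called in all against 100 here.

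The HB showed no such separation of ACHE. Its values were 97.4, 93.0, 88.0 and 201 during territory establishment and 158, 57.8, 78.3, 42.6 and 127 during incubation, and the stages overlapped widely. The log2 fold change was 0.44 (95% interval -0.60 to 1.47).

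The stage difference of ACHE in the VmT was tested directly against those of the other regions. It was lower by 3.53 on the log2 scale than that in the HYPO, written as -3.53 (SE 0.71, 95% interval -4.99 to -2.07, adjusted p = 0.00239). This was called in all 40 alternatives that gave a value, with adjusted p values between 1.34e-05 and 0.00831. Against the HB the difference was -2.60 (SE 0.71, adjusted p = 0.0989), not called here but a call where the female entered as a replicate block (adjusted p = 0.0487), a fit that called 257 of all transcripts in this comparison against 85 here. Between the HYPO and the HB it was 0.93 (95% interval -0.53 to 2.39).

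The call in the VmT itself was less firm. It was lost when the VmT was fitted on its own (adjusted p = 0.226), where 3 transcripts were called in all, without the unresolved VmT library (log2 fold change -1.97, adjusted p = 0.0549) and when the VmT library of 85889 was left out (-1.69, adjusted p = 0.0502).

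Some marker genes also differed between the stages in the VmT. The summed pituitary markers were low in the VmT, with 0.97 to 9.33 during territory establishment and 9.40 to 34.5 during incubation. Of the 13 thalamus, habenula and midbrain markers, 3 (SOX14, GATA3 and SHOX2) were called higher during incubation (3.1% of all transcripts). Of the 13, 0 were called higher during territory establishment (0.426%). All 13 had a log2 fold change below 0 in the VmT (median -1.33). Their sum was highest in female 85840 (2577) and lowest among the incubation libraries in female 85889 (1677), whose ACHE was highest. The summed hypothalamus markers were 122 to 197 in the VmT during territory establishment and 552, 293, 127, 437 and 907 during incubation, in the order of females given above. Of the 8 hypothalamus markers, 5 had a log2 fold change below 0 in the VmT and 3 above 0 (median -1.28, 0 called). PRPH, an intermediate filament of peripheral and motor neurons, was 66.7 and 54.5 in the VmT of the females 85889 and 85899 and at most 23.5 in the other 7 VmT libraries. In the HYPO 7 of 8 hypothalamus markers had a log2 fold change above 0 (median 0.69, 0 called), and 3 of the 13 thalamus, habenula and midbrain markers did (median -0.14, 0 called). The stage difference in the VmT minus that in the HYPO was below 0 for 7 of the 8 (median -1.80, 1 called, AVT) and for all 13 (median -0.81, 2 called, SOX14 and SHOX2). Over all transcripts 5.28% were called in that direction. The part of these markers in the ACHE results was not tested.

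**Figure D2:**
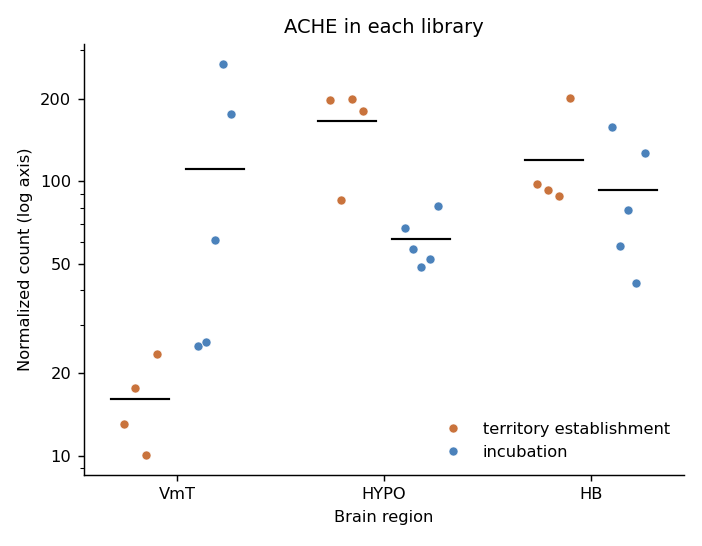
Normalized counts of ACHE (log axis) in each library by region and stage, with black lines at the group means. In the VmT the 4 libraries of territory establishment (10.0 to 23.4) lie below the 5 of incubation (25.04 to 268), and in the HYPO the 4 of territory establishment (85.7 to 199) lie above the 5 of incubation (48.9 to 81.4).

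The second transcript titled acetylcholinesterase was low, with a mean of 22.2, and is given because its values were seen. It moved in the same directions, with log2 fold changes of -1.19 in the VmT (adjusted p = 0.296), 1.38 in the HYPO (adjusted p = 0.228) and a difference between the regions of -2.56 (SE 0.79, adjusted p = 0.0504), none of them called. In the VmT it was 51.8 and 48.9 in the females 85889 and 85899 and at most 9.44 in the others, with overlapping stages. Both transcripts may come from one gene, so the second is no independent measure.

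Averaged over the stages, ACHE was lowest in the VmT. The log2 fold change was -1.51 against the HYPO (SE 0.36, adjusted p = 0.00212) and -1.50 against the HB (SE 0.36, adjusted p = 0.00115), and 0.01 between the HYPO and the HB (95% interval -0.72 to 0.74). These are means of the stages, and the medians over the 9 libraries of a region were 25.04 in the VmT, 81.4 in the HYPO and 93.0 in the HB. The order of the group means turned with the stage. During territory establishment the mean was 16.03 in the VmT, 120 in the HB and 166 in the HYPO. During incubation it was 111 in the VmT, 92.7 in the HB and 61.3 in the HYPO. The VmT mean of incubation was raised by the libraries of 85889 and 85899. The medians of incubation were 78.3 in the HB, 60.8 in the VmT and 56.6 in the HYPO. In the females 85757 and 85774 of incubation the VmT was still the lowest region. Of the high VmT libraries of incubation, that of 85889 (268) lay above every HB library and that of 85899 (176) within their range.

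The transcripts whose pattern over the 27 libraries was most like that of ACHE were not cholinergic. They were titled sodium/potassium-transporting ATPase subunit alpha-1 isoform c (r = 0.97), tubulin alpha chain-like 3 (r = 0.97) and plasma membrane calcium-transporting ATPase 3 (r = 0.95), both ATPases being ion pumps of the cell membrane and tubulin the building block of microtubules. Each was higher in the VmT during incubation, by log2 fold changes of -1.95, -1.68 and -1.73 (all called), and had a log2 fold change above 0 in the HYPO (1.07, 1.14 and 1.06, none called). They were picked for their likeness to ACHE over the same libraries, so a shared stage pattern was built into the choice. As deviations from the group means, 5 of 11796 transcripts with a mean of at least 50 reached an r of 0.9 with ACHE. CHAT had an r of 0.00 with ACHE over the libraries and -0.14 as deviations.

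Of the 9 genes, CHRM4 had the largest log2 difference between regions. CHRM4, the Gi-coupled receptor that is abundant in the striatum of mammals, had 555 to 1745 normalized counts in the VmT (median 859), 32.6 to 116 in the HYPO (median 66.0) and 41.3 to 92.5 in the HB (median 50.3). Even the lowest VmT library, the unresolved one, lay far above the highest library of the other regions (116). CHRM4 had a log2 fold change of 3.86 between the VmT and the HYPO (SE 0.23, adjusted p = 7.78e-13) and of 4.03 between the VmT and the HB (SE 0.23, adjusted p = 3.41e-14). The HYPO and the HB did not differ beyond their spread (0.16, 95% interval -0.30 to 0.63).

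CHRM5, a Gq-coupled receptor that dopamine neurons of mammals carry, was graded over the regions. Its normalized counts were 233 to 588 in the VmT (median 331), 104 to 178 in the HYPO (median 158) and 50.3 to 81.1 in the HB (median 65.4), and the ranges of the 3 regions did not overlap. Its log2 fold changes were 1.2 between the VmT and the HYPO (SE 0.13, adjusted p = 9.20e-08), 2.34 between the VmT and the HB (adjusted p = 5.43e-14) and 1.14 between the HYPO and the HB (adjusted p = 5.35e-07).

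CHRM3, the other Gq-coupled receptor, was low and much the same in the regions, with 37.1 to 67.2 normalized counts in the VmT, 32.0 to 60.6 in the HYPO and 30.4 to 67.6 in the HB. Its log2 fold changes between regions were 0.10 (VmT and HYPO), 0.10 (VmT and HB) and -0.0019 (HYPO and HB), with 95% intervals that all lay between -0.34 and 0.43.

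Between stages none of the muscarinic receptors was called. CHRM5 in the VmT was 588, 422, 296 (the unresolved library) and 331 during territory establishment and 234, 357, 233, 292 and 397 during incubation. The groups overlapped, with a log2 fold change of 0.42 (95% interval 0.03 to 0.81, unadjusted p = 0.0373, adjusted p = 0.279). In the HYPO it was -0.32 (95% interval -0.71 to 0.07), and the difference between these stage differences was 0.73 (SE 0.27, adjusted p = 0.118). That difference passed where the female was a replicate block (adjusted p = 0.0488) or as a fixed replicate block (0.79, adjusted p = 0.0283). CHRM4 in the VmT was 1562, 1745, 555 and 914 against 825, 764, 859, 1120.2 and 638, a log2 fold change of 0.39 (95% interval -0.26 to 1.04). CHRM3 in the HYPO was 45.2, 32.0, 39.1 and 37.5 during territory establishment and 43.7, 55.6, 50.9, 53.3 and 60.6 during incubation, overlapping by 1 library, with a log2 fold change of -0.45 (95% interval -0.92 to 0.02, adjusted p = 0.383).

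The nicotinic subunits differed little between regions by comparison. CHRNA4, the alpha subunit of the main high affinity receptor of vertebrate brain, had 158 to 258 normalized counts in the VmT (median 204), 274 to 399 in the HYPO (median 327) and 162 to 316 in the HB (median 268). All 9 HYPO libraries lay above the 9 of the VmT. For CHRNA4 the log2 fold changes were -0.70 between the VmT and the HYPO (SE 0.11, adjusted p = 1.08e-05), -0.31 between the VmT and the HB (adjusted p = 0.0168) and 0.38 between the HYPO and the HB (adjusted p = 0.015). The call between the VmT and the HB was lost with edgeR (adjusted p = 0.0515) and when the VmT library of female 85689 was left out (adjusted p = 0.052).

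CHRNA7, the subunit of the calcium-permeable alpha-7 channel, was lower in the HB. It had 1326 to 1768 normalized counts in the VmT, 1151 to 1891 in the HYPO and 1025 to 1443 in the HB. CHRNA7 had a log2 fold change of 0.37 between the VmT and the HB (SE 0.08, adjusted p = 3.34e-04), of 0.41 between the HYPO and the HB (SE 0.08, adjusted p = 6.42e-04) and of -0.03 between the VmT and the HYPO (95% interval -0.19 to 0.13). A second transcript titled alpha-7-like, with a mean of 100.1, gave 0.68 (adjusted p = 0.0393) and 1.04 (adjusted p = 0.00913) in the first pair of comparisons.

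CHRNB2, the partner of alpha-4, was flat over the regions. Its normalized counts were 586 ± 55.8 in the VmT, 588 ± 61.4 in the HYPO and 579 ± 50.6 in the HB (SD, n = 9 each). Its log2 fold changes were -0.01 (VmT and HYPO), 0.01 (VmT and HB) and 0.03 (HYPO and HB), and the 3 intervals lay between -0.16 and 0.17.

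None of the nicotinic subunits was called between stages. In the HYPO, CHRNA7 was 1151, 1580.2, 1382 and 1717 normalized counts during territory establishment and 1872, 1855, 1891, 1473 and 1727 during incubation. The ranges overlapped through the library of female 85889, with a log2 fold change of -0.28 (95% interval -0.51 to -0.06, unadjusted p = 0.0167, adjusted p = 0.209). CHRNB2 gave -0.03 in the VmT, 0.13 in the HYPO and 0.01 in the HB, with no interval reaching beyond 0.33 on either side. CHRNA4 gave -0.07, -0.14 and 0.13 in the same order.

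**Figure D3:**
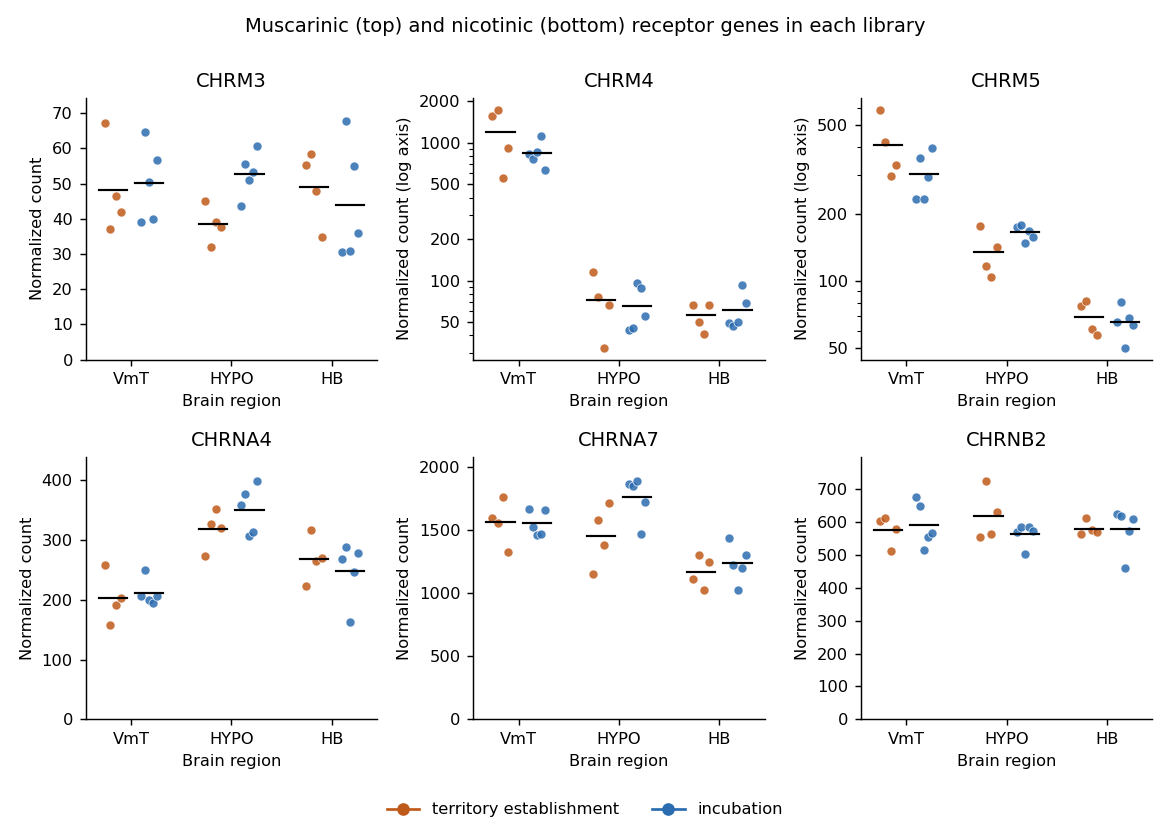
Normalized counts of the 6 receptor genes in each library by region, coloured by stage, with black lines at the group means (log axes for CHRM4 and CHRM5, axes from 0 for the others). CHRM4 stands out in the VmT (555 to 1745 against at most 116 elsewhere), CHRM5 falls from the VmT over the HYPO to the HB, and CHRNB2 lies between 460.4 and 726 in all libraries.

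Counted over the 9 genes, 4 were called between the VmT and the HYPO (25.9% of all transcripts tested were). CHRM4 and CHRM5 were higher in the VmT (11.7% of all transcripts in that direction) and ACHE and CHRNA4 in the HYPO (14.1%). Between the VmT and the HB 7 were called (43.4% of all transcripts), with CHRM4, CHRM5 and CHRNA7 higher in the VmT (17.6%) and CHAT, SLC5A7, ACHE and CHRNA4 higher in the HB (25.7%). Between the HYPO and the HB 5 were called (12.4% of all transcripts), with CHRM5, CHRNA4 and CHRNA7 higher in the HYPO (5.33%) and CHAT and SLC5A7 higher in the HB (7.05%). The median log2 fold changes of the 9 genes were 0.10, 0.01 and 0.03 in these comparisons, since genes of both directions were present.

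Between stages, limma called 1 of the 9 genes in the VmT (3.53% of all transcripts), 0 in the HYPO (0.514%) and 0 in the HB (0.00514%). The call in the VmT was in the direction of incubation (3.1% of all transcripts, against 0.426% higher during territory establishment), and in the HYPO 0.293% of all transcripts were called higher during territory establishment and 0.221% during incubation. At an unadjusted p under 0.05 there were 3, 2 and 0 of the 9 genes (15.55%, 14.18% and 3.32% of all transcripts). Both edgeR and DESeq2 called 1, 0 and 0 of the 9. Of all transcripts edgeR called 685, 100 and 1, and DESeq2 1045, 445 and 1. Stages were fully separated for 1 gene in the VmT (4.38% of all transcripts) and 1 in the HYPO (5.56%), ACHE in both, and for 0 in the HB (1.45%). The stage difference itself differed between the VmT and the HYPO for 1 gene (5.95%, with 5.28% in its direction and 0.673% in the other). Between the VmT and the HB it differed for 0 (0.437%), with 1 at an unadjusted p under 0.05 (8.45%). There edgeR called 0 of the 9 (62 of all transcripts) and DESeq2 1 (325 of all transcripts). Between the HYPO and the HB it was 0 of 9 with each of the 3 tools and at an unadjusted p under 0.05, and limma called 0 of all transcripts there (edgeR 31, DESeq2 155).

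**Figure D4:**
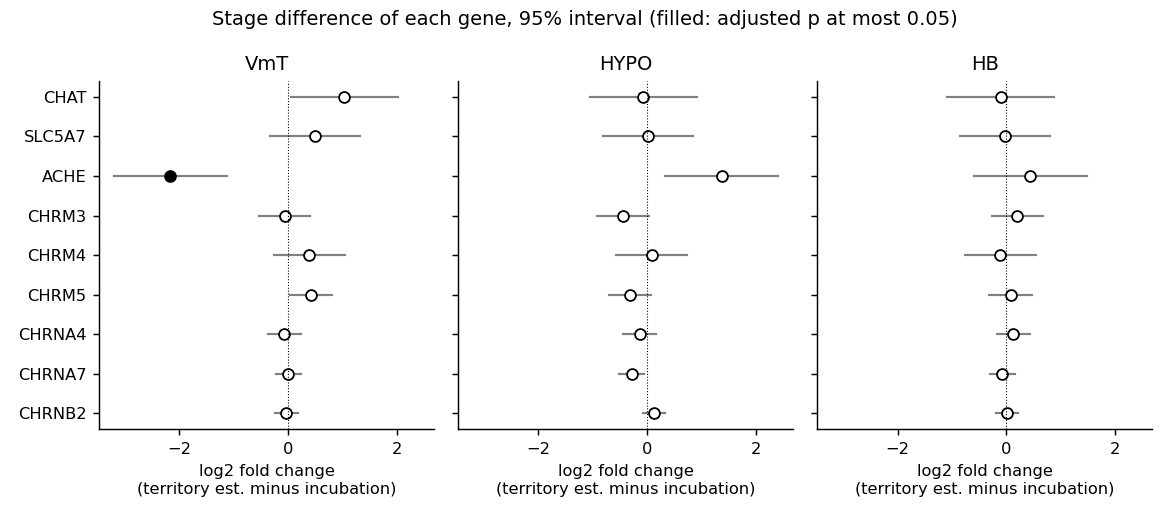
Log2 fold changes between stages (territory establishment minus incubation) of the 9 genes in each region, with 95% intervals, filled where the adjusted p is at most 0.05. ACHE in the VmT (-2.16) is the only filled point, its HYPO value (1.37) lies on the other side of 0, and the intervals of the nicotinic subunits are the narrowest.

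Of 31 further genes of cholinergic transmission (choline carriers and kinases, other receptor subunits, anchors of cholinesterases and receptor chaperones) 18 were measured. Limma called 0 of the 18 between stages in each region, as did edgeR and DESeq2. At an unadjusted limma p under 0.05 there were 0 in the VmT (15.55% of all transcripts), 1 in the HYPO (14.18%) and 1 in the HB (3.32%). Between the VmT and the HB 12 were called (43.4% of all transcripts), 11 of them higher in the HB (25.7%). Between the HYPO and the HB 7 were called (12.4% of all transcripts), all 7 higher in the HB (7.05%). Between the VmT and the HYPO 6 were called (25.9% of all transcripts), 1 higher (11.7%) and 5 lower (14.1%) in the VmT.

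Among the receptor genes of that list, CHRNA3, the subunit of ganglionic receptors, was 61.9 to 139 in the HB, 30.4 to 76.6 in the HYPO and 12.1 to 51.0 in the VmT. Its log2 fold change was -2.03 between the VmT and the HB (adjusted p = 4.58e-08) and -1.19 between the VmT and the HYPO (adjusted p = 3.04e-04). CHRNA5, an accessory subunit, was higher in the HB than in the VmT (-0.70) and the HYPO (-0.55, adjusted p = 0.00261). PRIMA1 and COLQ, which anchor cholinesterase in membrane and matrix, were both higher in the HB than in the VmT, by -0.59 and -0.62. BCHE, the cholinesterase related to ACHE, differed less, by -0.47 between the VmT and the HB (adjusted p = 0.0487). The choline transporter-like protein SLC44A5 was lowest in the VmT (126 to 176, against 219 or more elsewhere), with -1.29 against the HB. SLC44A2, of the same family, was also higher in the HB than in the VmT (-0.62) and the HYPO (-0.23, adjusted p = 0.0361), and SLC44A1 was called in none of the region comparisons. RIC3, a chaperone of nicotinic receptors, was lower in the VmT than in the HYPO (-0.26) and the HB (-0.30). CHRNG, a subunit of the muscle receptor, was low and higher in the HB than in the VmT (-1.14, adjusted p = 0.00111). The summed muscle markers were also higher in the HB, and their part was not tested. LYPD6, of the family of LYPD1, was lower in the VmT than in the HB (-1.46) and the HYPO (-0.90, adjusted p = 0.0313). CHKA, a choline kinase, was called in none of the region comparisons (1641 to 2427 normalized counts over all libraries). LYPD1, a membrane protein of the family that modulates nicotinic receptors, was the gene higher in the VmT, by 0.67 against the HYPO and 0.47 against the HB.

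CHRNB3, another accessory nicotinic subunit, varied more between females than between the regions of a female. In the VmT, HYPO and HB it was 2430.4, 1254 and 1474 normalized counts in female 85674, 1149, 1095 and 677 in female 85694, and 62.2, 145 and 71.1 in female 85689, all of territory establishment. Among the females of incubation it was 1260, 1290.3 and 918 in 85840 and 1314, 1090 and 864 in 85899, but 139, 164 and 166 in 85889. The other females lay between, with 304, 328 and 188 in 85757 and 534, 511 and 358 in 85774. High and low females occurred in both stages.

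Over the 8 females with all 3 regions, the highest CHRNB3 value was 39.1 times the lowest in the VmT, 8.89 times in the HYPO and 20.7 times in the HB. Within a female the highest region was 1.2 to 2.33 times the lowest. The Pearson r of the log2 values over these 8 females was 0.98 between the VmT and the HYPO, 0.99 between the VmT and the HB and 0.96 between the HYPO and the HB. Of 11797 transcripts with a mean of at least 50, 8 (0.0678%) had all 3 of these correlations at 0.95 or above. For comparison, the r of CHRNB2 ran from 0.36 to 0.79 and that of CHRNA4 from -0.21 to 0.53. The unresolved VmT library had 264, and female 85691 had 220.2 in the HYPO and 194 in the HB, values that were not used to assign that library.

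**Figure D5:**
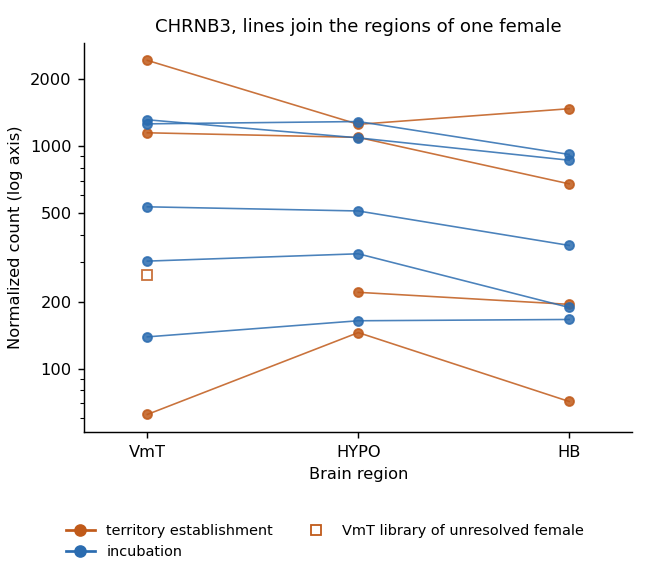
Normalized counts of CHRNB3 (log axis) in the 3 regions, with lines joining the libraries of one female, coloured by stage, and an open square for the unresolved VmT library. Within a female with all 3 regions the highest value is 1.2 to 2.33 times the lowest. Between these females it is 8.89 to 39.1 times the lowest within a region. Values are 62.2 to 145 in female 85689 and 1254 to 2430.4 in female 85674, while the lines of 85694, 85840 and 85899 lie close together.

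Of 20 genes through which muscarinic receptors signal (G protein subunits, phospholipases, adenylyl cyclases, potassium channels and regulators of G protein signalling), all 20 were measured. Between stages limma called 0 in each region, as did edgeR and DESeq2. At an unadjusted limma p under 0.05 there were 3 in the VmT, near the share of all transcripts (15.55%). There were 0 in the HYPO (14.18%) and 0 in the HB (3.32%). Comparing VmT with HYPO, limma called 10 of these 20 genes higher (11.7% of all transcripts) and 3 lower (14.1%) in the VmT. For VmT against HB, 12 were called higher (17.6%) and 3 lower (25.7%) in the VmT. For HYPO against HB, 4 were called higher (5.33%) and 1 lower (7.05%) in the HYPO. The genes named next were chosen after their values were seen. ADCY5, the adenylyl cyclase of striatal neurons, which Gi-coupled receptors such as M4 inhibit, had log2 fold changes of 2.56 and 2.43 between the VmT and the HYPO and HB (adjusted p = 7.16e-11 and 3.35e-11), and the HYPO and HB gave -0.13. PLCB1, a phospholipase that Gq activates, gave 1.19 and 1.5 in the same comparisons. PLCB4, another of these phospholipases, was lower in the VmT, by -0.91 and -1.0.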

How the data were processed

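The study sequenced stranded mRNA libraries of 3 brain regions. Per the labels and the study's methods, the authors trimmed reads with Trimmomatic 0.36, mapped them to a tree swallow transcriptome with Bowtie2 2.3.4.1 and SAMtools 1.3.1, kept proper pairs, removed a female with low RNA integrity, dropped transcripts with few reads and used DESeq2 1.16.1 in R 3.4.1. The deposited signal values are counts divided by 1 size factor per library: 100% of low values were whole multiples of a step within a tolerance of 0.1, so reads were recovered from them. Gene names rest on the deposited protein titles. The members and gene lists were chosen with earlier results of these data known. R 4.3.3 with limma 3.58.1 (trend, Benjamini-Hochberg adjustment, two-sided) was run on log2(value + 1) for transcripts reaching 1 normalized count in 4 or more libraries. The fit was tested on simulated data. edgeR 4.0.16 (quasi-likelihood) and DESeq2 1.42.0 were run on recovered reads as alternatives. All members were named, and other transcripts of their titles and further cholinergic genes could be named with a mean of at least 50 or a call, with exceptions stated. The values of 1 marker gene are not reported here. Libraries of one female come from the same animal. The correlation of their deviations averaged over each female was 0.21 to 0.48, and the lowest single pair had -0.01. Figures used matplotlib 3.10.9.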

Additional observations from a re-analysis of the deposited data

Results flagged for a closer look

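Among the 54 sets of 4 or 5 libraries (9 genes in 6 groups), 6 held a library whose gap to the nearest other exceeded Dixon's 95% critical value. Chance flags about 1 in 20 such sets. The HB library of female 85889 was high among the incubation libraries in CHAT (626.5 normalized counts against 387 in the next) and in SLC5A7 (3975 against 2787). In the same library the summed pituitary markers were 87640, against 2.90 to 344 in the other 4, and their part was not tested. ACHE was high in the HB library of female 85694 of territory establishment (201, next 97.4) and low in the HYPO library of female 85689 of that stage (85.7, next 180.0). CHRNA4 was high in the VmT library of female 85774 of incubation (249, next 207). CHRNB2 was low in the HYPO library of female 85840 of incubation (504, next 570.4).

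The stage difference of ACHE differed between the VmT and the HYPO by -3.53 on the log2 scale (SE 0.71, limma adjusted p = 0.00239), with every VmT value of incubation above those of territory establishment and the reverse in the HYPO.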

How the results depend on the processing

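Every result was recomputed under 41 alternatives, 27 of which left out 1 library each, and 81 gene and comparison results were followed. Of the 18 called, 16 stayed called with the same direction wherever a value could be had, the exceptions being ACHE between stages in the VmT and CHRNA4 between the VmT and the HB. Of the 63 not called, 60 were called under none. No called result changed sign, and sign changes among values called under neither setting numbered 121. CHRM3 gave no value with a mean of at least 50, the fit of each region alone covers stage differences only, and the fixed block leaves those out.

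The count of members called between stages in the VmT was 1, and 0 with the region alone. Leaving out 1 library it was 0 to 1, with 0 without the unresolved library or that of female 85889. In the HYPO it was 0, and 1 with the region alone. For the difference between the VmT and the HYPO it was 1, and 2 with the female as a replicate block (consensus correlation 0.20) or as a fixed replicate block. For that between the VmT and the HB it was 0, and 1 with the replicate block, with DESeq2 or without the libraries of female 85757, and 0 to 1 leaving out 1 library (1 without the VmT library of 85757 or 85774). The replicate block changed no other count by over 1.5 times. Over all transcripts limma called 687 and 100 between stages in the VmT and HYPO, and 85 for the difference between the VmT and the HB, where DESeq2 called 1045, 445 and 325. Where these member counts rose, all transcripts called numbered 236 with the HYPO alone, 257 with the replicate block for ACHE between the VmT and the HB, and 1612 with it and 1133 with the fixed replicate block for CHRM5 between the VmT and the HYPO (1159 with no block). For the VmT against the HB, 219 were called without the libraries of female 85757. Without only the VmT library of 85757 or 85774 there were 171 or 191. Between stages in the VmT, 425 were called without the unresolved library and 395 without that of 85889, against 687 with all libraries. The cause of these changes was not tested. Depth limits ACHE in the VmT, where territory establishment rests on 14 to 24 reads per library.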
